A study of Mus musculus with 36 samples.

Results

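The acyl-CoA thioesterases considered here are the 10 genes Acot1, Acot2, Acot3, Acot4, Acot6, Acot7, Acot8, Acot9, Acot12 and Acot13, measured by 16 of the 56605 non-control probes on each array and making up 10 of 37325 genes. A probe was taken as a member if the gene name in the scanner files equalled one of those symbols. The level of every member was compared over 36 mouse liver arrays in 6 groups of 6. All mice were C57Bl/6J males. AAKO is the label of mice that lack the triglyceride lipase ATGL in white adipose tissue, and CTRL the label of their controls; the Cre driver and the control genotype are not given in the sources used here. CTRL fed and AAKO fed mice ate freely and received no named agent, CTRL fasted and AAKO fasted mice went 24 h without food, and CTRL CL316243 and AAKO CL316243 mice were fed and received a single gavage of 3 mg/kg CL316243 at Zeitgeber time 10 in a carboxymethyl cellulose vehicle. CL316243 is an agonist of the beta 3 adrenergic receptor, which sits mainly on adipocytes. Every mouse was killed at Zeitgeber time 16. The labels place both fed groups in experiment 2 and the other 4 groups in experiment 1, so any difference between a fed and another condition cannot be told apart from a difference between experiments, while the genotype comparison within each condition stays inside 1 experiment. A gavage is described for the CL316243 groups only.

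Acyl-CoA thioesterases cut fatty acyl-CoA into free fatty acid and coenzyme A, and so oppose the synthetases that activate fatty acids. The family has 2 structural types that share the reaction but not the fold. Type I genes sit side by side in a duplicated cluster and encode cytosolic, mitochondrial and peroxisomal enzymes, several of them known targets of the fatty acid receptor PPAR alpha in liver. Type II genes are scattered over the genome. Acot1, Acot2, Acot3, Acot4 and Acot6 are type I, and Acot7, Acot8, Acot9, Acot12 and Acot13 are type II.

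Because the type I genes are close copies of each other, the letters of their probes are shown first: these are the starting 30 of 60 bases of the probe used for each gene, from the deposited array files, in lower case throughout as no base is singled out.
Acot1 probe: tatcaaaatagtgctgattcaagggctggg
Acot2 probe: atggtagaaggagagaacaaactctgacaa
Acot3 probe: gtgtacacacacacatatacacacaagcac
Acot4 probe: tgctggatgacatgaaattcatgtttaggg
Acot6 probe: caagccagtagctttcacttctcttttctc
In the mm9 coordinates of the files these probes lie on the plus strand of chromosome 12, at chr12:85358452-85358511 for Acot1, chr12:85334553-85334612 for Acot2, chr12:85400452-85400511 for Acot3, chr12:85384821-85384880 for Acot4 and chr12:85451951-85452010 for Acot6. The probes used for the type II genes lie at chr4:151645802-151645861 for Acot7, chrX:151732066-151732125 for Acot9 and chr13:91924390-91924449 for Acot12 (plus strand), and at chr2:164618360-164618419 for Acot8 and chr13:24909838-24909897 for Acot13 (minus strand). No annotation of that build was used here, so exon and UTR positions are not given. Compared with the probes of every other Acot gene on the array, Acot5 and Acot10 included, the longest run of letters that the Acot2 probe shared with another gene's probe was 9 bases, and the Acot1 and Acot6 probes shared at most 8. Over the full 60 bases in any ungapped alignment, the probe shown for Acot4 matched at most 24 bases of another gene's probe. A further Acot4 probe, used below, matched up to 30 bases, with an Acot5 probe. The probes were set only against each other, so hybridisation to a relative's transcript was not tested.

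The promoters of the members that were lower in AAKO in both the fasted and the CL316243 comparison are shown next, because these are the genes that moved together: Acot1, Acot2, Acot3, Acot4 and Acot8 (RefSeq, GRCm38.p6, the 250 bases before the start site, 5′ to 3′ on the gene's strand). Acot6 and Acot13 met the same rule and are named only; 8 of the 10 members have an entry in that table. PPAR alpha binds as a dimer to DR1, a direct repeat of the hexamer AGGTCA with a spacer of 1 base. Capitals mark a DR1 match with at most 2 mismatches on either strand.
Acot1, chr12:84009252-84009501, plus strand: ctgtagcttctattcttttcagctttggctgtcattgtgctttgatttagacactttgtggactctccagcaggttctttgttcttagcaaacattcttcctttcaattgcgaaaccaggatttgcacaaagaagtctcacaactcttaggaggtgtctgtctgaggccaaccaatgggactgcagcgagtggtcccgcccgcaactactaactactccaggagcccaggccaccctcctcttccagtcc
Acot2, chr12:83987611-83987860, plus strand: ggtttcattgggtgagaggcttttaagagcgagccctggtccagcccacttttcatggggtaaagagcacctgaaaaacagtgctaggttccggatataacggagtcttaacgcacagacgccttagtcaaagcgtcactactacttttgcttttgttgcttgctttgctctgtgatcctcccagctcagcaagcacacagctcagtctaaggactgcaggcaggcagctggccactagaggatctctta
Acot3, chr12:84051894-84052143, plus strand: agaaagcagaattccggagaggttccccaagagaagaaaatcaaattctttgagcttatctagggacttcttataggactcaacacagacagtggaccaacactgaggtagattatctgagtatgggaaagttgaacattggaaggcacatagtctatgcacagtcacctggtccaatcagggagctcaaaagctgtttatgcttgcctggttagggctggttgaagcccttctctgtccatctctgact
Acot4, chr12:84038129-84038378, plus strand: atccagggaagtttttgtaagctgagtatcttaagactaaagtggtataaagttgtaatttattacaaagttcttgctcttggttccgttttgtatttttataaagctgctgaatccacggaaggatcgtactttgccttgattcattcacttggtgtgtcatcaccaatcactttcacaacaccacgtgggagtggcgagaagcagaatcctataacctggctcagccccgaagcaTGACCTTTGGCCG
Acot8, chr2:164804882-164805131, minus strand: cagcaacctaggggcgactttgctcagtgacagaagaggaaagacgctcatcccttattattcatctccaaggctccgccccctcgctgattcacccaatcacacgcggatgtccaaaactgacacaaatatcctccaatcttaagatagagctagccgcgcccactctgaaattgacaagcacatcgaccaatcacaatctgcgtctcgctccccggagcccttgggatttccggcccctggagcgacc
Only the Acot4 window of these 5 held such a match, from -13 to -1 relative to the start site on the opposite strand, with 2 mismatches, and 1 of its repeats was an exact AGGTCA. Outside these 5, the Acot12 window held a closer match, with 1 mismatch, from -110 to -98, and the Acot7 and Acot9 windows held none. Acot12 was not called lower in fasted AAKO livers. Among 32851 windows of this length in the table, 3.24% held a DR1 with at most 2 mismatches, 0.0335% an exact DR1 and 14% at least 1 exact AGGTCA. None of the 5 windows held an exact DR1. A match is a description of letters, and a window without a match says nothing of the receptor.

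Hepatocyte markers were high in all 6 groups: 10 of 10 (among them Alb, Ttr and Cps1) were well above background, with a list mean between 7.89 and 8.09 on the scale of the members. That scale is log2 of a probe's signal minus log2 of its array's 75th percentile, so 0 is the brightness of that percentile and a level cannot be set against another gene's. All 10 members passed the filter on dim probes (well above background on 5 of 6 arrays of at least 1 group), as did 15 of their 16 probes and 24251 of 37325 genes. Tests were limma's moderated test over all 24251 genes with a wash batch term and Benjamini-Hochberg adjustment, and a gene is said to rise, fall or be called where its adjusted p was below 0.05. The labels number the replicates but do not tie each RNA to a named mouse, so the p-values measure the spread between these arrays, and in whole liver fewer cells of a type and less RNA per cell cannot be told apart. Liver Pnpla2, the gene deleted in fat, does not check the genotype labels: its level was 3.54 to 4.03 in CTRL fed and 2.95 to 3.96 in AAKO fed livers, and 4.95 to 6.32 in CTRL fasted against 6.58 to 6.95 in AAKO fasted livers. The 36 arrays had 33128 to 37200 probes well above background.

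In 3 arrays several chromosome 12 genes had the extreme value of their group. CTRL fasted replicate 5 was the lowest of its group for Acot1, at 4.87 against 6.53 to 7.06 in the other 5, which was also past Dixon's outlier test. AAKO fed replicate 4 was the highest of its group for Acot3, at -0.51, and CTRL CL316243 replicate 6 was the lowest of its group for Acot3, at -1.44; neither was past that test. With those 3 arrays left out together, a choice made after the values were seen, 7 members were lower in AAKO than in CTRL when fasted, as with all arrays, and 7 instead of 8 with CL316243. The Acot1 differences between genotypes became -3.26 and -3.19.

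**Figure D1:**
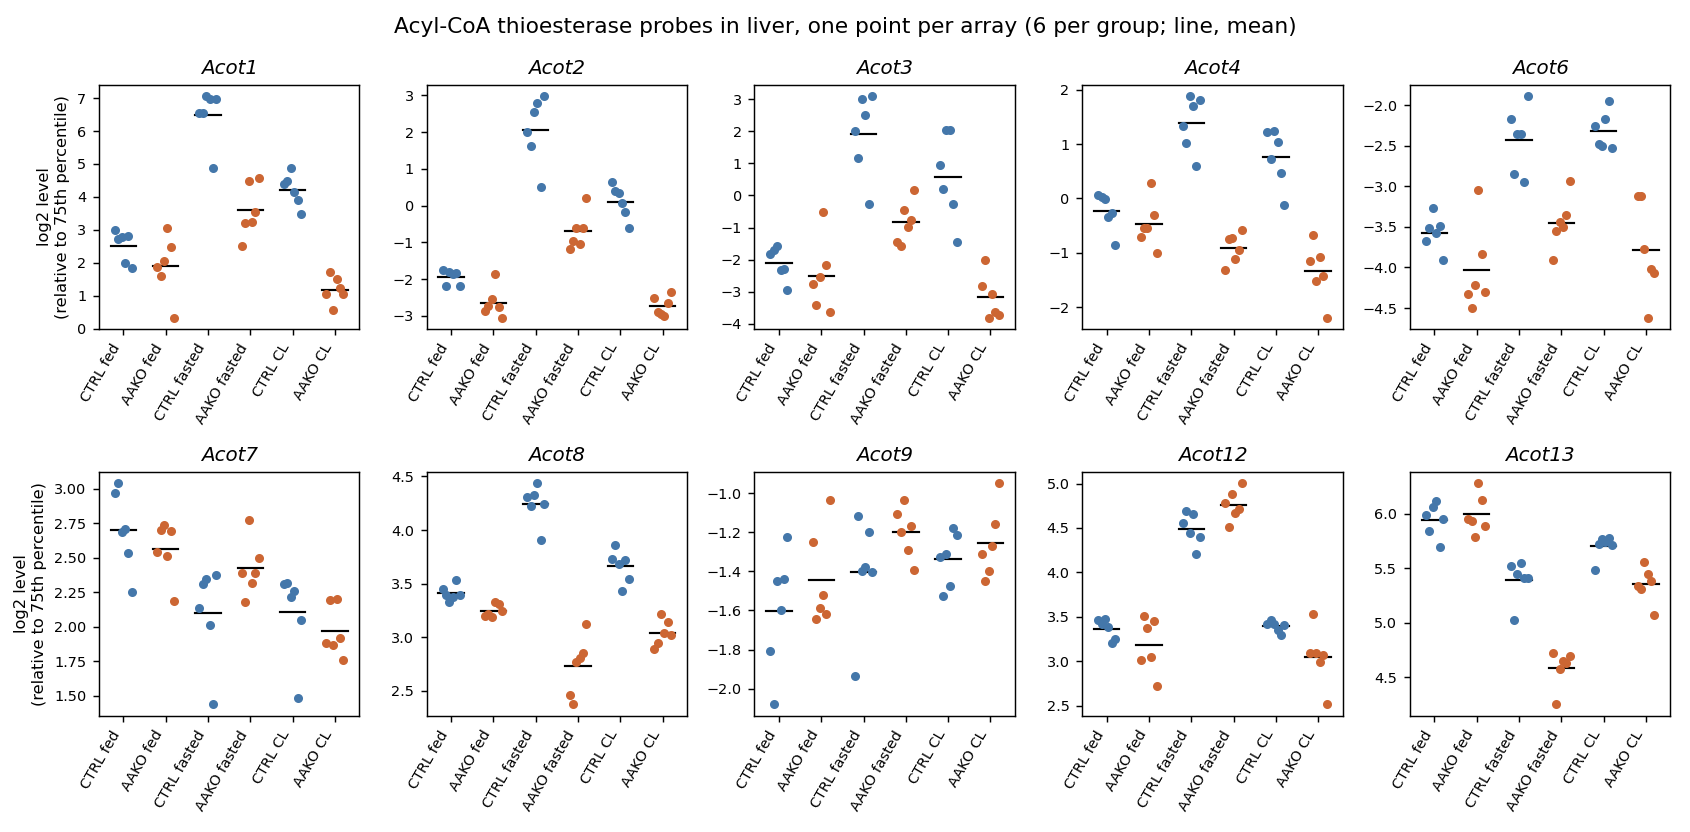
Each panel plots 1 thioesterase, with the 6 groups on the x axis and the log2 level on the y axis, where 0 is each array's 75th percentile; points are arrays (CTRL blue, AAKO orange), lines are group means and CL stands for CL316243. Acot1, Acot2, Acot3 and Acot4 have their highest mean in CTRL fasted livers, Acot12 is high in both fasted groups, and Acot9 spans little more than 1 log2 unit over all 36 arrays.

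In CTRL livers all 5 type I genes rose with fasting and with CL316243, by the brightest probe of each gene. Acot1, the cytosolic long-chain thioesterase, had levels from 1.83 to 2.99 (median 2.75) in the CTRL fed group. They ran from 4.87 to 7.06 (median 6.76) after fasting and from 3.49 to 4.87 (median 4.27) after CL316243. Every CTRL fasted and CTRL CL316243 array was above every CTRL fed array. The rise was 3.98 ± 0.37 on the log2 scale (SE of the fit), or 15.7-fold, after fasting (limma adjusted p = 3.81e-10) and 1.69 ± 0.37, or 3.23-fold, after CL316243 (adjusted p = 0.00119). Acot2, the mitochondrial member, lay between -2.18 and -1.75 in the fed livers of this genotype, between 0.50 and 2.98 in the fasted and between -0.60 and 0.65 in the CL316243 ones. Those ranges did not overlap the fed one either, and the log2 rises were 4.01 ± 0.29 (16.1-fold, adjusted p = 1.06e-12) and 2.05 ± 0.29 (4.14-fold, adjusted p = 4.11e-06).

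Acot3, a peroxisomal thioesterase, ranged from -2.94 to -1.56 when CTRL mice were fed, from -0.27 to 3.10 when they were fasted and from -1.44 to 2.04 when they received CL316243. The lowest fasted and the lowest CL316243 array were still above the highest fed array, but the spread was the widest of the 10 members in these groups (SD 1.29 and 1.37, n = 6 each). Its log2 rise was 4.03 ± 0.54 after fasting (16.3-fold, adjusted p = 3.11e-07) and 2.70 ± 0.54 after CL316243 (6.49-fold, adjusted p = 0.000428). Acot4, which cleaves succinyl-CoA in peroxisomes, rose by 1.63 ± 0.25 (3.09-fold) and 0.99 ± 0.25 (1.99-fold). Its CTRL CL316243 arrays (-0.12 to 1.23) overlapped the CTRL fed ones (-0.86 to 0.06), while its CTRL fasted arrays (0.59 to 1.89) did not. Acot6, a peroxisomal enzyme for branched-chain acyl-CoA, rose by 1.15 ± 0.21 and 1.26 ± 0.21, with CTRL levels of -3.91 to -3.27 fed, -2.95 to -1.89 fasted and -2.53 to -1.94 after CL316243. A further, dimmer Acot6 probe was called in neither comparison (0.34 ± 0.22 after fasting and 0.23 ± 0.22 after CL316243), with overlapping ranges. That probe was well above background on only 3 of 6 CTRL fed arrays, so it cannot test these rises and its values are a description.

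Across the family, fasting raised 7 of 10 members in CTRL (Acot1, Acot2, Acot3, Acot4, Acot6, Acot8 and Acot12), against 20.9% of all genes, and lowered 2 (Acot7 and Acot13), against 22.4%. CL316243 raised the 5 type I members, against 10.4% of all genes, and lowered Acot7, against 12.8%. The members' median log2 difference was 1.14 after fasting and -0.02 over all genes. With median scaling 37.8% of the genes called after fasting in CTRL were higher, against 48.3% in the main scaling. In the same livers Kupffer cell markers averaged 2.00 fed, 1.29 fasted and 1.02 with CL316243 (8 markers), and endothelial markers 1.40, 1.31 and 0.58 (6 markers); their part in these differences was not tested.

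In AAKO livers the responses of Acot1, Acot2, Acot3 and Acot4 to fasting were smaller than in CTRL, and none of the 5 type I genes was called higher after CL316243. Acot1 was at 0.33 to 3.07 (median 1.96) in AAKO fed, 2.50 to 4.58 (median 3.40) in AAKO fasted and 0.55 to 1.72 (median 1.15) in AAKO CL316243 livers. The fasted range overlapped the fed range, and the CL316243 range lay inside it. The log2 differences from fed were 1.70 ± 0.37 after fasting (adjusted p = 0.000193) and -0.77 ± 0.38 after CL316243 (adjusted p = 0.123; without AAKO fed replicate 6 it was -1.04, adjusted p = 0.0272). Acot2 rose by 1.94 ± 0.29 after fasting and differed by -0.12 ± 0.29 after CL316243, a difference whose sign turned without AAKO fed replicate 4, at 0.025. Acot3 rose by 1.66 ± 0.54 after fasting (0.74 and adjusted p = 0.319 averaged over its probes), and its -0.76 ± 0.54 after CL316243 was not called. That average includes a dimmer Acot3 probe, well above background on 1 of 6 AAKO fed and 2 of 6 AAKO fasted arrays. Acot4 did not pass the test after fasting (-0.43 ± 0.25, adjusted p = 0.128) and fell by 0.90 ± 0.25 after CL316243 (adjusted p = 0.00512).

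Counted over the family, fasting raised 5 of 10 members in AAKO (Acot1, Acot2, Acot3, Acot6 and Acot12), against 27.8% of all genes, and lowered 2 (Acot8 and Acot13), against 35.7%. CL316243 raised none of them, against 15.7% of all genes called higher, and lowered 3 (Acot4, Acot7 and Acot13), against 15.7% called lower. At an unadjusted p below 0.05 the count for CL316243 in AAKO was 5 of 10, each of them lower, against 9813 of 24251 genes in either direction. After normexp background correction the median gene moved from -0.09 to -0.12 in the fasting comparison and the Acot6 rise of 0.59 ± 0.21 became 0.08, with adjusted p = 0.396. In each genotype the fasting and the CL316243 comparison share the same fed arrays. Markers of other cells moved in the same AAKO livers: 5 of 7 neutrophil markers were higher after fasting (median 2.68 on the log2 scale) and 4 of 8 Kupffer cell markers lower (median -0.74). After CL316243, 7 of 8 Kupffer cell markers (median -1.21), 5 of 6 stellate cell markers (median -0.58) and 3 of 6 endothelial markers (median -0.46) were lower. Their part in these differences was not tested.

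**Figure D2:**
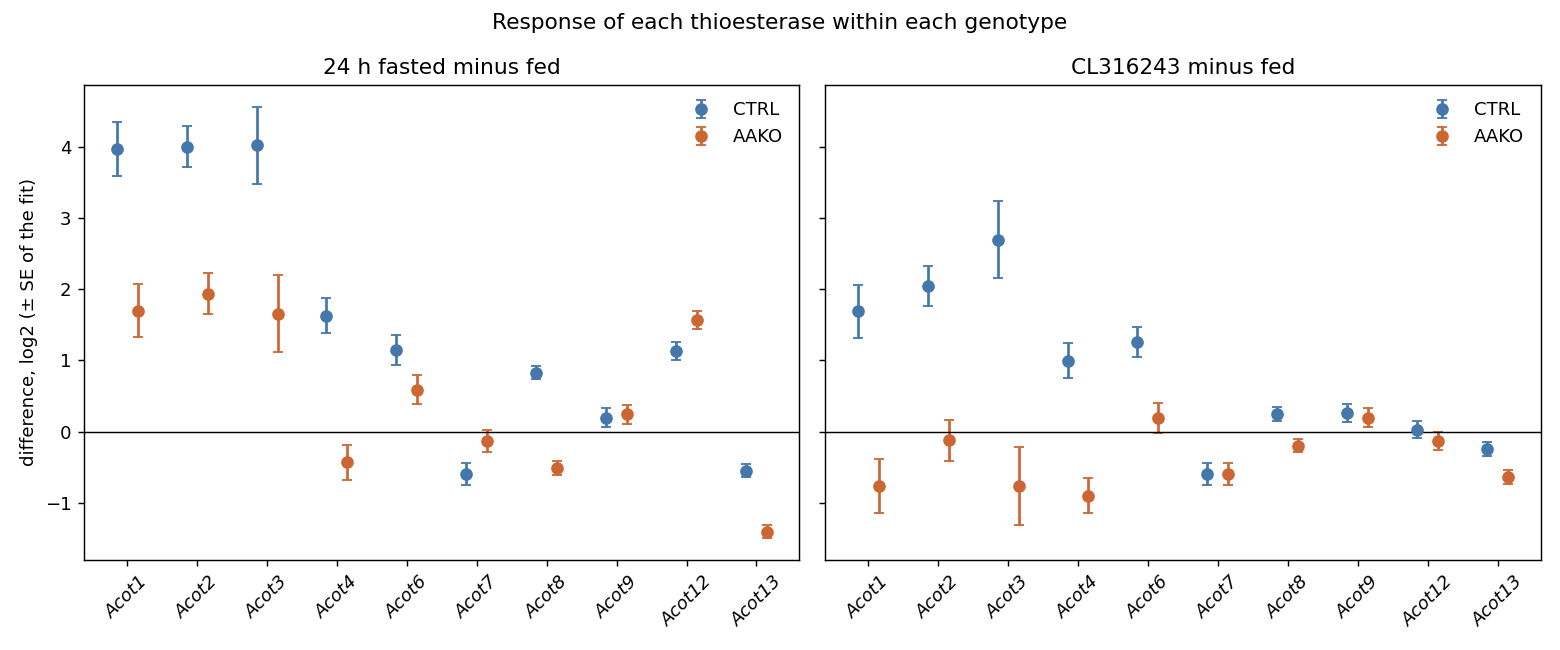
The y axis gives the log2 difference of fasted (left) or CL316243 (right) from fed livers, with the SE of the fit as bars, for each thioesterase on the x axis; blue is CTRL and orange AAKO. The CTRL and AAKO points of Acot1 lie at 3.98 and 1.70 on the left, and at 1.69 and -0.77 on the right, while the points of Acot9 lie at 0.20 and 0.24 on the left and at 0.26 and 0.20 on the right.

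The test of the difference between the CTRL and AAKO responses (the interaction term of the same limma fit) was called for 6 members after fasting, all with a smaller or more negative response in AAKO. It was -2.27 ± 0.53 for Acot1 (adjusted p = 0.00107), -2.07 ± 0.40 for Acot2, -2.37 ± 0.77 for Acot3, -2.06 ± 0.35 for Acot4, -1.34 ± 0.13 for Acot8 and -0.86 ± 0.14 for Acot13. For CL316243 it was also called for 6 members: -2.46 ± 0.53 for Acot1 (adjusted p = 0.00192), -2.17 ± 0.41 for Acot2, -3.46 ± 0.77 for Acot3, -1.90 ± 0.35 for Acot4, -1.07 ± 0.29 for Acot6 and -0.44 ± 0.13 for Acot8. Acot13 just missed it (-0.40 ± 0.14, adjusted p = 0.0543). A further, dimmer Acot6 probe was not called by the CL316243 interaction (0.16 ± 0.31). Being well above background on 1 of 6 AAKO fed and 2 of 6 AAKO CL316243 arrays, it cannot test that response. Of all genes, 19.4% were called lower and 14.5% higher by the fasting interaction, and 4.52% lower and 6.34% higher by the CL316243 interaction. In the authors' deposited table, 44.1% of the genes called by the CL316243 interaction were higher, against 58.4% in the main scaling. The Acot8 interaction with CL316243 lost its call without CTRL CL316243 replicate 2 (-0.40, adjusted p = 0.0575) and without AAKO fed replicate 4 (-0.42, adjusted p = 0.0512).

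In fed livers no member differed between genotypes beyond the test. The count was 0 of 10 by limma, where 0.0412% of all genes were called higher and 0.0371% lower. At an unadjusted p below 0.05 it was 2 of 10 (Acot2 and Acot6), against 1644 of 24251 genes in either direction. In the authors' deposited table, 66.7% of the few genes called were higher, against 52.6% in the main scaling. The log2 difference was -0.63 ± 0.37 for Acot1, -0.70 ± 0.29 for Acot2, -0.39 ± 0.54 for Acot3 and -0.46 ± 0.21 for Acot6, and the ranges of both genotypes overlapped for each of the 10 members.

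After 24 h without food, all 5 type I genes were lower in AAKO than in CTRL livers. Acot1 was at 2.50 to 4.58 in AAKO fasted against 4.87 to 7.06 in CTRL fasted livers, with no overlap, a log2 difference of -2.90 ± 0.37, or 7.46-fold lower (adjusted p = 1.18e-07). Acot2 was at -1.19 to 0.22 against 0.50 to 2.98, a difference of -2.77 ± 0.29, or 6.82-fold lower (adjusted p = 1.84e-09). Both genes kept the groups fully apart even though CTRL fasted replicate 5 was low. Acot4 was at -1.32 to -0.58 against 0.59 to 1.89, a difference of -2.30 ± 0.25, or 4.92-fold lower (adjusted p = 3.49e-09). Acot3 (-2.76 ± 0.54, adjusted p = 8.03e-05) and Acot6 (-1.02 ± 0.21, adjusted p = 0.000114) were also lower, but their ranges overlapped between genotypes: Acot3 was at -1.58 to 0.18 against -0.27 to 3.10. Averaged over all its probes, including a dim one that did not pass the filter, Acot6 was not called (-0.37, adjusted p = 0.0967). The dimmer of its tested probes differed by -0.63 ± 0.22 without overlap, but was well above background on 3 of 6 AAKO fasted arrays.

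Among the type II members, Acot8 and Acot13 were also lower in fasted AAKO livers. Acot8, a peroxisomal thioesterase of broad specificity, was at 2.37 to 3.12 in AAKO fasted against 3.91 to 4.44 in CTRL fasted livers, a log2 difference of -1.51 ± 0.09, or 2.85-fold lower (adjusted p = 7.42e-14). The ranges were far apart, and its standard error was the smallest of the 10 members in this comparison. Acot13, a thioesterase that associates with mitochondria, was at 4.25 to 4.72 against 5.03 to 5.55, a difference of -0.81 ± 0.10, or 1.75-fold lower (adjusted p = 3.29e-08). Acot12, the cytosolic acetyl-CoA hydrolase of liver, was not called (0.27 ± 0.13, adjusted p = 0.0787), although it passed the threshold without AAKO fasted replicate 2 (0.32, adjusted p = 0.0428) or without CTRL fasted replicate 2 (0.31, adjusted p = 0.0483). Acot7 (0.32 ± 0.15) and Acot9 (0.20 ± 0.13) were not called either.

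In all, 7 of the 10 members were lower and none was higher in AAKO fasted than in CTRL fasted livers, where 28.0% of all genes were called lower and 21.3% higher. The median log2 difference was -1.26 over the members and -0.04 over all genes. Acot7 and Acot12 were higher at an unadjusted p below 0.05, which 13237 of 24251 genes passed in either direction. Within wash batch 1 the Acot1 difference was -2.21 and within wash batch 2 it was -3.59; the Acot8 difference was -1.40 and -1.62. Neutrophil markers differed between the same groups: their list mean (7 markers) ran from -2.24 to 1.56 in AAKO fasted and from -4.84 to 0.91 in CTRL fasted livers, with all 7 markers well above background on at least 3 arrays in AAKO and 5 of 7 in CTRL. Endothelial markers averaged 1.77 and 1.31, cholangiocyte markers -3.04 and -2.68, and hepatocyte markers 8.09 and 8.08. Behind the close hepatocyte means, 3 of the 10 hepatocyte markers were called higher and 5 lower in AAKO. The part of these cells in the thioesterase differences was not tested.

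After CL316243 the same side of the family was lower in AAKO. Acot1 was at 0.55 to 1.72 in AAKO CL316243 against 3.49 to 4.87 in CTRL CL316243 livers, a log2 difference of -3.08 ± 0.38, or 8.47-fold lower (adjusted p = 3.07e-07). Acot2 was at -3.00 to -2.35 against -0.60 to 0.65 (-2.87 ± 0.29, 7.31-fold lower, adjusted p = 9.67e-09). Acot3 was at -3.81 to -2.0 against -1.44 to 2.04 (-3.85 ± 0.54, 14.4-fold lower, adjusted p = 3.12e-06). The ranges of these 3 genes did not overlap. Acot4 (-2.14 ± 0.25, 4.4-fold lower) and Acot6 (-1.53 ± 0.21, 2.89-fold lower) were also lower without overlap. For Acot6 this rests on its brightest probe. A further, dimmer Acot6 probe was not called (-0.38 ± 0.22), and its ranges overlapped. That probe was well above background on 2 of 6 AAKO CL316243 arrays, so it cannot test the size of this difference. Acot8 was at 2.89 to 3.22 against 3.43 to 3.86, a smaller difference than after fasting, of -0.61 ± 0.10.

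Acot13 and Acot12 were lower by less, with overlapping ranges. Acot13 differed by -0.35 ± 0.10 (adjusted p = 0.00753), which was -0.47 within wash batch 1 and -0.16 within wash batch 2. Acot12 differed by -0.35 ± 0.13, just past the threshold (adjusted p = 0.0439), and this call was lost in 10 of the 12 fits that left out a single array of the compared groups, most of all without AAKO CL316243 replicate 6 (-0.24, adjusted p = 0.152), and within either wash batch. The total was 8 members lower and none higher, where 11.3% of all genes were called lower and 13.4% higher, with a median log2 difference of -1.07 over the members and 0.03 over all genes. In the authors' deposited table, 42.3% of all genes called were higher, against 54.3% in the main scaling. Hepatocyte markers averaged 8.09 (8.03 to 8.18) in AAKO and 7.89 (7.81 to 8.0) in CTRL CL316243 livers, and endothelial markers 0.99 and 0.58; their part was not tested.

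**Figure D3:**
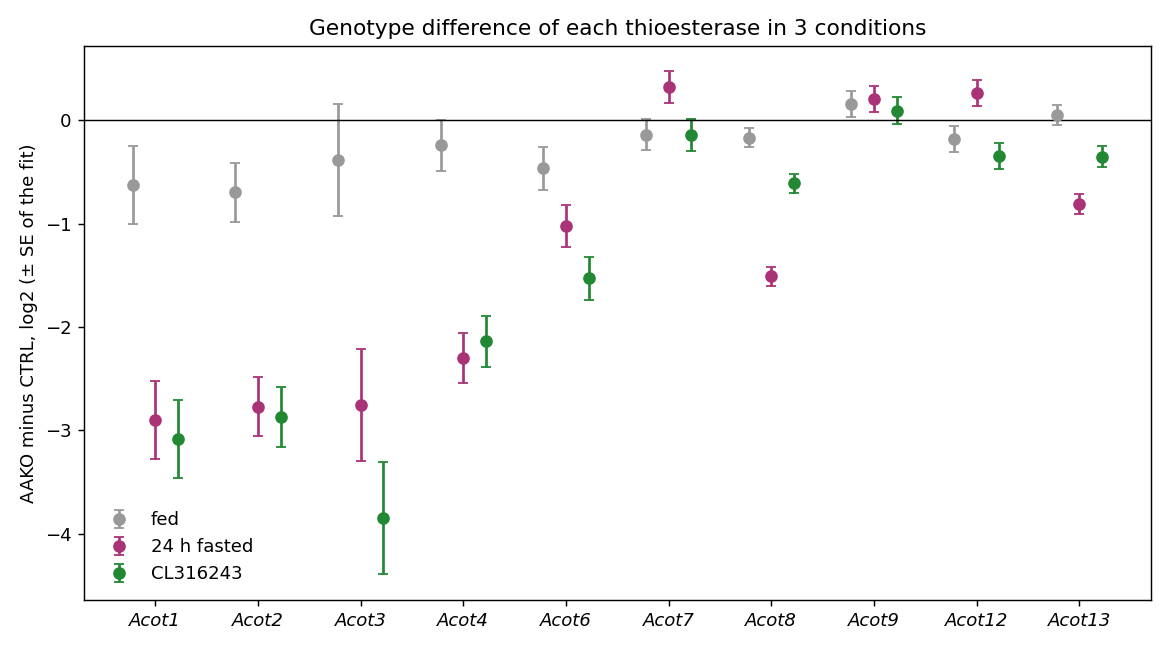
The y axis gives the log2 difference of AAKO minus CTRL livers with the SE of the fit, for each thioesterase on the x axis, in fed (grey), fasted (magenta) and CL316243 (green) livers. The points of Acot1, Acot2, Acot3 and Acot4 lie below -2 in the fasted and CL316243 livers and between -0.70 and -0.24 in the fed ones, whereas Acot7 and Acot9 stay within 0.35 of 0.

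The genotype difference itself differed between fasting and CL316243 for 3 members. It was 0.90 lower on the log2 scale after fasting for Acot8 (-0.90 ± 0.13, adjusted p = 5.41e-06) and 0.46 lower for Acot13 (-0.46 ± 0.14, adjusted p = 0.0105), and it was 0.61 higher for Acot12 (0.61 ± 0.18, adjusted p = 0.00827). Of all genes 19.6% were called lower and 12.7% higher in this comparison. In the authors' deposited table, 54.9% of the genes called were higher, against 39.3% in the main scaling. For the type I genes the test was not passed, with differences of 0.18 ± 0.53 for Acot1, 0.10 ± 0.41 for Acot2, 1.09 ± 0.77 for Acot3, -0.16 ± 0.35 for Acot4 and 0.51 ± 0.29 for Acot6. A p above the threshold does not show that these genes differed equally in both conditions, and the sign of the Acot1 value turned without CTRL fasted replicate 5 (-0.17).

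The type II members moved in different directions. Acot12 levels lay between 3.20 and 3.47 in CTRL fed and between 3.30 and 3.47 in CTRL CL316243 livers, and between 4.21 and 4.70 in CTRL fasted and 4.51 and 5.01 in AAKO fasted livers. Both fasted groups were above all 4 other groups without overlap, and the rise over fed was 1.13 ± 0.13 in CTRL (adjusted p = 1.05e-08) and 1.57 ± 0.13 in AAKO (adjusted p = 1.94e-12). Their difference was not called (0.45 ± 0.18, adjusted p = 0.0523), and passed the threshold with normexp correction (0.44, adjusted p = 0.0448). Acot13 ran the other way: it fell by 0.55 ± 0.10 in CTRL and by 1.41 ± 0.10 in AAKO after fasting. Acot8 rose by 0.83 ± 0.09 in CTRL and fell by 0.52 ± 0.09 in AAKO, so that the AAKO fasted group was its lowest and the CTRL fasted group its highest.

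Acot7, a cytosolic thioesterase best known from brain, fell by 0.60 ± 0.15 after fasting and by 0.59 ± 0.15 after CL316243 in CTRL, with levels of 2.25 to 3.04 fed, 1.44 to 2.38 fasted and 1.49 to 2.32 after CL316243. The ranges overlapped. In AAKO it fell after CL316243 (by 0.60 ± 0.15) and was not called after fasting (-0.14 ± 0.15). Acot9, a mitochondrial thioesterase, was called in none of the 12 comparisons by its brighter probe, with group means from -1.60 (CTRL fed) to -1.20 (AAKO fasted). Its dimmer probe was called in several of them, as given below.

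Fasted and CL316243 livers were also set against each other within a genotype, which lies inside 1 experiment. In CTRL, 5 members were higher after fasting (19.2% of all genes) and 1 was lower (17.6%): Acot1 by 2.29 ± 0.37 and Acot2 by 1.96 ± 0.29 led, and Acot13 was lower by -0.31 ± 0.10, a call lost without CTRL fasted replicate 2 (-0.23, adjusted p = 0.0527). Acot4 was the weakest of the 5 (0.63 ± 0.25, adjusted p = 0.0414), and 7 of the 12 fits that left out 1 array lost its call, for example without CTRL CL316243 replicate 6 (0.47, adjusted p = 0.139). Acot3 differed by 1.33 ± 0.54 (adjusted p = 0.0526), and by 1.84 without CTRL fasted replicate 5 (adjusted p = 0.00352). In AAKO, 5 members were higher after fasting (26.2% of all genes) and 2 were lower (33.8%): Acot1 (2.47 ± 0.38), Acot2 (2.06 ± 0.29), Acot3 (2.42 ± 0.54), Acot7 (0.46 ± 0.15) and Acot12 (1.71 ± 0.13) against Acot8 (-0.32 ± 0.10) and Acot13 (-0.76 ± 0.10). In CTRL the share of called genes that were higher was 52.2%, and 39.1% with median scaling. In AAKO, normexp correction gave 31.4% and the values of the authors' deposited table gave 58.1%, against 43.6%, and normexp moved the median gene from -0.08 to -0.15. In the same comparison 6 of 7 neutrophil markers were higher after fasting in AAKO (median 2.45) and none was called in CTRL (median 0.79), and 4 of 6 stellate and 4 of 6 endothelial markers were higher in each genotype; their part was not tested.

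The order of the group means of Acot1 was CTRL fasted (6.50 ± 0.83), CTRL CL316243 (4.21 ± 0.48), AAKO fasted (3.60 ± 0.80), CTRL fed (2.52 ± 0.48), AAKO fed (1.90 ± 0.92) and AAKO CL316243 (1.19 ± 0.40; SD, n = 6 each). Only the step from CTRL fasted to CTRL CL316243 separated neighbours in that order without overlap, and there the lowest and the highest array were both at 4.87 after rounding. Acot2 and Acot3 had CTRL fasted first, CTRL CL316243 next and AAKO fasted after it as well. Acot8 had a different order, with CTRL fasted (4.24 ± 0.18), CTRL CL316243 (3.66 ± 0.15), CTRL fed (3.41 ± 0.07), AAKO fed (3.25 ± 0.06), AAKO CL316243 (3.04 ± 0.12) and AAKO fasted (2.73 ± 0.27).

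Acot3, Acot4, Acot6, Acot7 and Acot9 had further probes. In tests of single probes, 27.6% of 36550 probes were called lower and 22.5% higher there. The further Acot4 probe, well above background on all 36 arrays, was lower in AAKO by -1.75 ± 0.24 after fasting and by -1.91 ± 0.24 after CL316243, where 11.2% of probes were called lower. The dimmer Acot3 probe passed the filter through the CTRL fasted and CTRL CL316243 groups, where it was high, so its values are a description. It was at -3.48 to 0.15 in CTRL fasted (well above background on 6 of 6 arrays) and at -7.95 to -4.70 in AAKO fasted livers (2 of 6 arrays), with no overlap. After CL316243 this probe was well above background on 6 of 6 CTRL and 0 of 6 AAKO arrays, so only a bound is given. It was at least 15.9-fold lower in AAKO, taking the dim side at the lowest signal well above background on each array. A further Acot6 probe, which also passed through those CTRL groups, was at -5.41 to -4.94 in CTRL fasted (6 of 6 arrays well above background) and at -6.11 to -5.45 in AAKO fasted livers (3 of 6 arrays). A last Acot6 probe, above background on 9 of 36 arrays, was not tested; its means were -6.51 in CTRL fasted and -5.96 in AAKO fasted livers, the other way round.

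Among genes whose probes were all well above background on 36 arrays, the probes disagreed on some calls for Acot4, Acot7 and Acot9. The further Acot4 probe was called higher in fasted than in CL316243 livers of AAKO (0.80 ± 0.24, adjusted p = 0.00414), without overlap. The brighter Acot4 probe gave 0.47 ± 0.25 there (adjusted p = 0.0970 among probes). The dimmer Acot7 probe was called higher in AAKO fasted livers (0.30 ± 0.13, adjusted p = 0.0456), while the brighter one gave 0.32 ± 0.15 (adjusted p = 0.0816 among probes). The dimmer Acot9 probe was at -1.28 to -1.20 in AAKO fasted and at -1.85 to -1.37 in CTRL fasted livers, with no overlap, and was called higher (0.37 ± 0.09, adjusted p = 0.00115); the brighter probe gave 0.20 ± 0.13. After fasting in CTRL, where 22.3% of probes were called higher, the dimmer Acot9 probe rose by 0.45 ± 0.09. In AAKO that probe was higher in fasted than in fed livers by 0.70 ± 0.09. It was also higher in fasted than in CL316243 livers of AAKO, by 0.44 ± 0.09, and neither pair of ranges overlapped.

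Along chromosome 12 the RefSeq order is Acot2, Acot1, Acot4, Acot3, Acot5 and Acot6, and the probes lie from -23.9 kb to 93.5 kb relative to the Acot1 probe. Acot5, which encodes a further peroxisomal thioesterase and is not among the 10 genes, rose by 3.88 ± 0.35 after fasting in CTRL and was lower in AAKO by -2.96 ± 0.35 after fasting and -2.19 ± 0.35 after CL316243. The 8 flanking genes were taken by position after the members' values were known; 4 of them were tested, Dnal1 and Pnma1 were on the array but did not pass the filter, and Heatr4 and Gm31513 had no probe under those names. On the left, Riox1 differed by 1.06 ± 0.12 after fasting and -0.41 ± 0.12 after CL316243, and Numb by -0.49 ± 0.10 and -0.38 ± 0.10. On the right, Mideas differed by 0.44 ± 0.11 after fasting and was not called after CL316243 (-0.06 ± 0.11). Papln was called in neither.

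**Figure D4:**
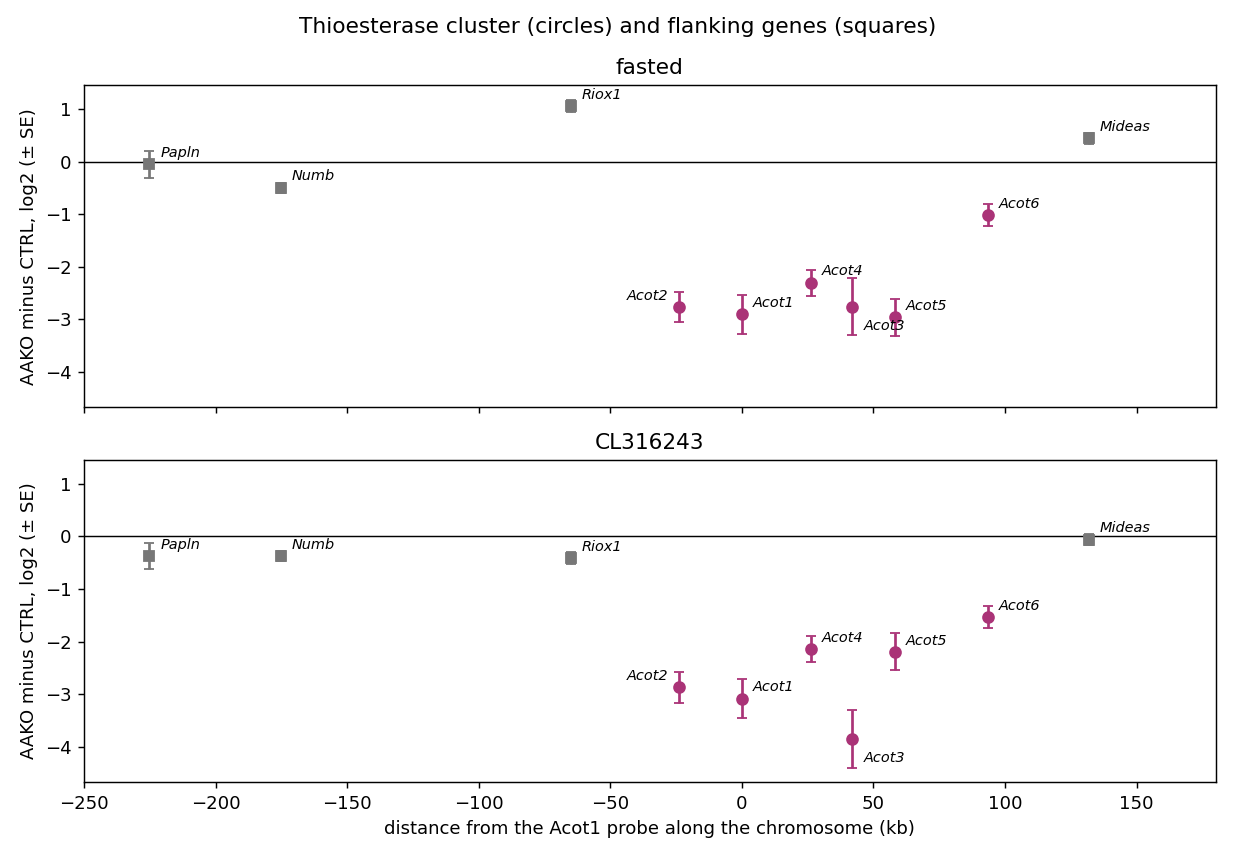
The x axis is the distance in kb from the Acot1 probe and the y axis the log2 difference of AAKO minus CTRL livers with its SE, in fasted (top) and CL316243 (bottom) livers; circles are thioesterase genes and squares flanking genes. The 6 circles lie between -3.85 and -1.02, and the squares between -0.49 and 1.06.

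Single arrays deviated together in the cluster. Each array's value was set against its group mean, which removes the differences between groups, and the 45 pairs of members were correlated over 36 arrays, with permutation of arrays within groups (100000 draws, two-sided, Benjamini-Hochberg over the 45 pairs). All 10 pairs of type I genes were called, with Pearson r from 0.51 to 0.89. Of 25 pairs of a type I with a type II gene 9 were called by Pearson r (7 positive and 2 negative). Among these, Acot12 with Acot1 and with Acot4 was not called by permutation of Spearman rho (adjusted p = 0.0510 and 0.0967). Of 10 pairs of type II genes 3 were called (1 positive and 2 negative). As a description of the background, 293292090 pairs were formed among 24220 tested genes with a value on every array. Of these, 1.71% had an r at or above the lowest type I value of 0.51, and 2.58% had an absolute r at or above it. The share of all pairs that the permutation test would call was not computed. Some called pairs with a type II gene had a smaller absolute r (-0.41 for Acot3 and Acot9), so their counts have no background here. The median r over all these pairs was 0.009, and the arrays share their scaling. The pair with the highest r was Acot3 and Acot4 (r = 0.89, Spearman rho = 0.90, p = 1e-05 for each, the smallest these draws can give, adjusted p = 9e-05 and 0.00015). Its r was 0.85 without the 2 arrays farthest from the median of Acot3, 0.87 within wash batch 1 and 0.90 within wash batch 2. Acot9 ran against Acot12 (r = -0.54, rho = -0.55, p = 0.0011 and 0.00251, adjusted p = 0.00379 and 0.00753; r = -0.62 without the 2 farthest arrays, -0.58 and -0.53 within the wash batches). For Acot1 and Acot6 the r of 0.51 was 0.61 in wash batch 1 and 0.21 in wash batch 2. Acot6 also had a lower r in wash batch 2 with Acot3 (0.75 and 0.29) and with Acot4 (0.74 and 0.20). With Acot2 its r was 0.55 and 0.51.

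**Figure D5:**
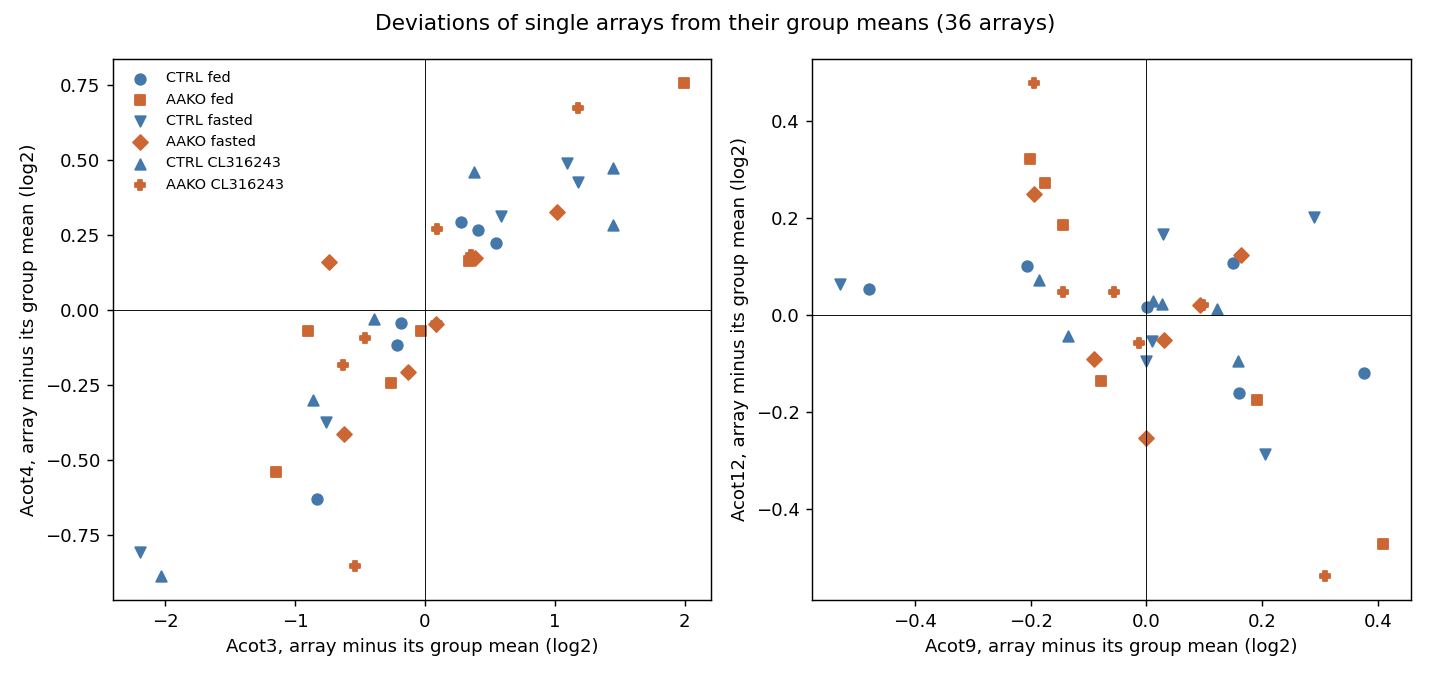
Each point is 1 of 36 arrays, placed by its deviation from its group mean on the log2 scale for Acot3 and Acot4 (left) and for Acot9 and Acot12 (right); marker shapes give the group, with CTRL in blue and AAKO in orange. The left panel has r = 0.89 and the right panel r = -0.54.

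The genes whose levels followed each member most closely over all 36 arrays were ranked by Pearson r (the leading 3 of another symbol per member). These correlations include the differences between groups, the arrays share their scaling, and the values are descriptions. For Acot1 they were Acot5 (Pearson r = 0.98), Acot2 (0.97) and Acot3 (0.95). For Acot2 they were Acot5, Acot1 and Slc22a5, the carnitine transporter (0.95), and for Acot3 they were Acot1, Acot5 and Acot2. For Acot8 they were Acad11 (0.97), Cpt2 (0.96) and Acadm (0.95), the last 2 of mitochondrial beta-oxidation. For Acot4 they were Gm23952, Gm32618 and Pex11a, a peroxisome division factor (0.93), for Acot6 Hykk, Lgals4 and Mtnr1a (0.87), for Acot12 Zfp787, Fitm2 and Epb41l4aos (0.96), for Acot13 Isoc1 (0.97), Wwp1 and Fam162a, and for Acot7 probes named AK087353 and ENSMUST00000121822 and the gene Hpdl (0.80). For Acot9 they were Csf2rb2 (0.77), Clec4d (0.71) and S100a9 (0.71), of which S100a9 is a neutrophil marker and Clec4d a lectin of myeloid cells.

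The other genes of acyl-CoA handling differed in fasted AAKO from fasted CTRL livers as follows, where 28.0% of all genes were called lower and 21.3% higher. Of 16 mitochondrial genes 15 were lower and none higher, with a median log2 difference of -1.23 over the list and -0.04 over all genes; Eci1 (-1.76 ± 0.10) and Hadh (-1.67 ± 0.12), enzymes of beta-oxidation, were the lowest, and Cpt1a was not called. Of 23 peroxisomal genes 20 were lower and 3 higher, from Ehhadh, the bifunctional enzyme (-3.58 ± 0.24), and Acaa1b, a thiolase (-2.55 ± 0.19), to Nudt7, a coenzyme A diphosphatase (1.72 ± 0.14), and Acox3 (0.31 ± 0.10). Of 17 acyl-CoA synthetases, which run the reverse reaction, 8 were lower and 2 higher: Acsl1 (-1.19 ± 0.16) and Acsm3 (-1.06 ± 0.09) against Acsl4 (1.39 ± 0.12) and Acss2 (0.70 ± 0.18). Of 13 genes of acyl-CoA binding and coenzyme A synthesis 8 were lower and 2 higher, with Acbd5 (-1.49 ± 0.15) and Fabp1 (-1.47 ± 0.17) against Pank4 (0.32 ± 0.06) and Acbd6 (0.24 ± 0.06). Of 9 further enzymes with thioesterase activity 3 were lower and 3 higher: Acot5 and Baat, which conjugates bile acids (-1.07 ± 0.11), against Acot11 (1.01 ± 0.23) and Fasn, the fatty acid synthase (0.73 ± 0.26).

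After CL316243, where 11.3% of all genes were called lower and 13.4% higher and the median over all genes was 0.03, the corresponding counts in AAKO against CTRL were 15 of 16 lower for the mitochondrial genes (median -0.50; Slc25a20 -0.98 ± 0.12 and Hadh -0.92 ± 0.12 lowest), 12 of 23 lower and 3 higher for the peroxisomal genes (Crat -2.25 ± 0.19, Acaa1b -1.31 ± 0.19, Nudt7 0.63 ± 0.14, Baat 0.56 ± 0.11), and 6 of 17 lower and 1 higher for the synthetases (Acsl1 -1.64 ± 0.16, Acss3 -1.38 ± 0.36, Acsl4 0.48 ± 0.12). Of the binding and coenzyme A genes 4 of 13 were lower and 1 higher (Acbd5 -1.0 ± 0.15, Pank1 -0.92 ± 0.09, Acbd3 0.25 ± 0.08). Of the further thioesterases 2 of 9 were lower and 3 higher, among them Acot5 (-2.19 ± 0.35) and Fasn (-0.71 ± 0.26), Acot11 (0.76 ± 0.24) and Baat (0.56 ± 0.11). In fed livers none of the genes on these 5 lists was called. Beside these lists the type I members had log2 differences of -2.90 to -1.02 after fasting and of -3.85 to -1.53 after CL316243.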

How the data were processed

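Liver RNA of 36 mice was labelled with Cy3 and hybridised to 1-colour Agilent arrays. The intensity values used (processed signal) were background-corrected by Agilent Feature Extraction 10.10.1.1 as deposited, per the file headers. The authors' deposited table holds log2 values for 36898 probes; the columns of a group have identical sorted values, and its normalization is not given in the sources used here (limma is named, without a version, per the submitters' processing notes). It served as an alternative only.

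From the scanner values, outlier spots (0.127%) and controls were left out, spots of a probe were averaged and log2 of each array's 75th percentile was subtracted. Gene names were updated by RefSeq accession (32994 probes matched). The probe with the highest mean stood for a gene. limma 3.58.1 in R 4.3.3 fitted 6 group means and the wash batch (2 batches) to all 36 arrays; 12 contrasts were tested over 24251 genes with Benjamini-Hochberg adjustment, and the scripts were tested on simulated data. The number of arrays limits the precision.

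The members, lists and tests were chosen with earlier results of these data known. All 10 members are named; of a pathway list, the 2 highest and 2 lowest called genes; for likeness, the leading 3 genes. The neighbours on chromosome 12 (4 protein-coding genes on either side; a gene beyond them is not reported here) and the 3 arrays left out together were chosen after values were seen. Acot5 is no member but is on a list. Alternatives were another background correction, scaling, filter, probe rule, batch, slide or replicate term, the deposited table and leaving out arrays. Same-numbered replicates did not deviate together (mean correlation -0.00106), so the numbers pair no samples.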

Additional observations from a re-analysis of the deposited data

Results flagged for a closer look

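Single arrays stood apart from the other 5 of their group in 6 of the 60 combinations of member and group, by the gap to the nearest array against the range of the group (Dixon's test); chance alone gives about 1 in 20. Acot1 was at 4.87 in CTRL fasted replicate 5 and at 6.53 to 7.06 in the others. Acot9 was at -1.94 in CTRL fasted replicate 1. Acot7 was at 1.49 in CTRL CL316243 replicate 5. Acot13 was at 5.03 in CTRL fasted replicate 2, at 4.25 in AAKO fasted replicate 2 and at 5.49 in CTRL CL316243 replicate 1, each the lowest of its group.

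The response to fasting differed between genotypes by the interaction test for Acot1 (-2.27), Acot2 (-2.07), Acot3 (-2.37), Acot4 (-2.06), Acot8 (-1.34) and Acot13 (-0.86, log2, AAKO minus CTRL). The response to CL316243 differed for Acot1 (-2.46), Acot2 (-2.17), Acot3 (-3.46), Acot4 (-1.90), Acot6 (-1.07) and Acot8 (-0.44). A further, dimmer Acot6 probe was not called by that test (0.16), but it was well above background on only 2 of 6 AAKO CL316243 arrays. The genotype difference after fasting was below that after CL316243 for Acot8 (-0.90) and Acot13 (-0.46) and above it for Acot12 (0.61).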

How the results depend on the processing

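Of the 68 called member values, 2012 of 2084 recomputed values kept direction and call, 72 lost the call and 0 changed sign; of 912 recomputed values of the 30 uncalled ones, 22 gained a call and 20 changed sign. Counts of called members moved by over 1.5 times only within a wash batch, where each group has 2 to 4 arrays. In wash batch 1 the count was 3 (against 6) for CL316243 in CTRL, 2 (against 6) for the CL316243 interaction and 1 (against 3) for the genotype difference of fasted against CL316243. In wash batch 2 it was 0 (against 3) for CL316243 in AAKO, 1 (against 6) for the CL316243 interaction and 1 (against 3) for the genotype difference of fasted against CL316243.

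The sign changes were all in uncalled values, and the cause was not tested. In wash batch 1, Acot1 and Acot3 differed by 0.024 and 0.14 between fed genotypes; in wash batch 2, Acot9 differed by -0.049 between CL316243 genotypes and Acot1 by -0.37 in the genotype difference of fasted against CL316243. Acot13 in fed livers was -0.0018 after quantile normalization, -0.0060 without the 3 arrays with extreme values and -0.0059 to 0.0974 with single arrays left out. With normexp, Acot6 for fasted against CL316243 in AAKO was -0.032 and Acot2 in the genotype difference of fasted against CL316243 was -0.55; the latter was -0.14 in the authors' deposited table. Without the 3 arrays, Acot2 was 0.0047 for CL316243 in AAKO and -0.11 in that genotype difference, Acot1 was -0.066 there, and Acot6 was 0.016 for fasted against CL316243 in CTRL. With single arrays left out, these ran from -0.18 to 0.025 (Acot2, CL316243 in AAKO), from -0.20 to 0.032 (Acot6), from -0.17 to 0.36 (Acot1) and from -0.22 to 0.28 (Acot2).

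With the replicate block the counts were 7 against 6 for CL316243 in CTRL, for fasted against CL316243 in CTRL and for both interactions. They were 7 against 7, 8 against 8 and 0 against 0 for the fasted, CL316243 and fed genotype comparisons. Only 6 of 36 arrays were closest to their own number, which shows no pairing by number but cannot exclude a weak one. With the fed groups in another experiment, no alternative separates experiment from condition.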
